A study of Aspergillus nidulans with 6 samples.

Results

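The genes described here belong to enzyme families that build and modify small molecules in Aspergillus nidulans. They encode polyketide synthases, nonribosomal peptide synthases, a terpene synthase and prenyltransferases, together with cytochrome P450s, other oxygenases and methyltransferases. By annotation, some of the methyltransferases act on tRNA or protein instead. All the genes were taken from the deposited table by the wording of its annotation column. The wording matched 56 genes, of which 5 were set aside because they are laeA or belong to the sterigmatocystin or F9775 loci. This left 51 of the 1375 genes in the table. They comprise 17 cytochrome P450s, 5 monooxygenases, 13 dioxygenases and 2-oxoglutarate-dependent (2OG) oxygenases, 8 methyltransferases, and 8 synthases and prenyltransferases.

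RNA-Seq libraries were made from mycelium of 2 strains, with 3 cultures of each, which had grown in liquid minimal medium for 3 days at 37 °C. The 3 days are those of the methods, while the paper's results name a later RNA-Seq time-point, so the culture age is not settled. The control is SAA.111, which carries the veA1 allele, the markers biA1, riboB2, pyroA4 and wA3, and argB replaced by trpC (ΔargB::trpC). veA1 is a partial loss of function of a regulator of development and secondary metabolism, and both strains carry it. In celAΔ, made from SAA.111, an argB cassette stands in place of celA (ANIA_08444), a putative mixed linkage glucan synthase gene, and some of the labels call the strain downregulated rather than deleted. The study describes a single transformant capable of stable growth, and its methods name residual heterokaryons as the probable source of the celA reads left in it, so the celAΔ cultures share 1 strain and the loss of celA and the return of argB cannot be told apart. The p-values below measure only the spread between these cultures.

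In filamentous fungi a secondary metabolite usually starts with a large backbone enzyme. A polyketide synthase joins acyl units, a nonribosomal peptide synthase joins amino acids, and a dimethylallyltryptophan-type (DMATS) prenyltransferase attaches a prenyl group to an aromatic ring. Tailoring enzymes then finish the molecule: cytochrome P450s and flavin monooxygenases insert 1 oxygen atom, dioxygenases insert both atoms of molecular oxygen or couple the oxidation to 2-oxoglutarate, and methyltransferases cap hydroxyl groups. The genes for 1 pathway often lie side by side in the genome. Members of the same enzyme families also serve primary metabolism, for example in ergosterol synthesis and in the breakdown of aromatic amino acids.

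The table holds only genes that the authors had selected on these same libraries, with an unadjusted p-value under 0.05 and means at least 2-fold apart, so an adjusted p-value is no independent evidence and no gene that failed the selection can be seen. Mapped reads, recovered from reads, gene length and RPKM (reads scaled to gene length and library depth), ranged from 3300251 to 3706233 in the control and from 4176645 to 5205011 in celAΔ. For celA itself 198, 197 and 111 reads were counted in the control against 33, 38 and 36 in celAΔ, a log2 FC of -2.64. Control replicate 3 stood apart from the other controls. Correlations across the listed genes were taken on log2 values of unique reads scaled to each library's mapped reads, not to gene length. Control replicate 3 had correlations of 0.845 and 0.841 with control replicates 1 and 2, and of 0.789 to 0.810 with the celAΔ libraries. Control replicates 1 and 2 correlated at 0.988 with each other. The summed RPKM of 4 conidiation genes, a list used to look for conidia in the mycelium, was 41.0 and 40.7 in control replicates 1 and 2, 1247 in control replicate 3 and 1623 to 3389 in celAΔ. The paper names these genes as higher in celAΔ in these same libraries, so their higher sum in celAΔ is no independent evidence. Of these 4 genes, 1 passed the threshold and 3 did not, and ANIA_10628 was at 0 in control replicate 2. The part of conidia in the results was not tested, and in such bulk RNA fewer cells of a type cannot be told apart from less RNA per cell.

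The comparison used the quasi-likelihood test of edgeR on unique reads, with the mapped reads as library size. A gene was called with a Benjamini-Hochberg adjusted p-value under 0.05 over the listed genes and an absolute log2 FC over 1, where the log2 FC is celAΔ over control. Of the 51 enzyme genes, 25 were called higher in celAΔ and 25 lower, and 1 was not called. Among all listed genes the percentages called were 93.6 in either direction, 41.1 higher and 52.5 lower. When DESeq2's own size factors were used, which moved the median log2 FC of the listed genes by 0.68, the split of the enzyme genes became 26 higher and 12 lower. Among all listed genes 613 of the 959 calls were then higher (63.9%), so the shift was shared by the table. Counting every locus of the genome assembly in the adjustment left 14 higher and 14 lower (38.1% of the listed genes in either direction, 12.5% higher and 25.6% lower). No enzyme gene changed direction in any of 15 settings, and 24 were called in every setting that held them. The matching count over all listed genes is not given, and single settings called 524 to 1349 of the 1375. A minimum mean RPKM left some genes out of 1 setting. All genes had been selected with means at least 2-fold apart, so a constant direction is no independent evidence.

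In RPKM the 3 celAΔ libraries lay above the 3 control libraries in 26 enzyme genes and below them in 25. The same holds for 46.7% and 53.3% of the listed genes, 100.0% in all, which had been selected on these RPKM values. For 1 gene alone an exact permutation test of 3 libraries against 3 can give no p-value below 0.1. The classes divided unevenly. Of the synthases and prenyltransferases 7 were called higher and 1 lower, of the P450s 9 and 8, of the methyltransferases 4 and 4, of the monooxygenases 1 and 3, and of the dioxygenases and 2OG oxygenases 4 and 9. With adjustment over all loci the same counts were 4 and 1, 7 and 4, 1 and 3, 1 and 1, and 1 and 5. The 13 calls lost with DESeq2's own size factors were all of lower genes. They included the dioxygenases ANIA_01704, ANIA_06031, ANIA_10323 and ANIA_01899 and the monooxygenases ANIA_11008 and ANIA_04151. The monooxygenase ANIA_05338 was then called higher, so the split by class depends on the setting. No test of a difference between classes was made.

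**Figure D1:**
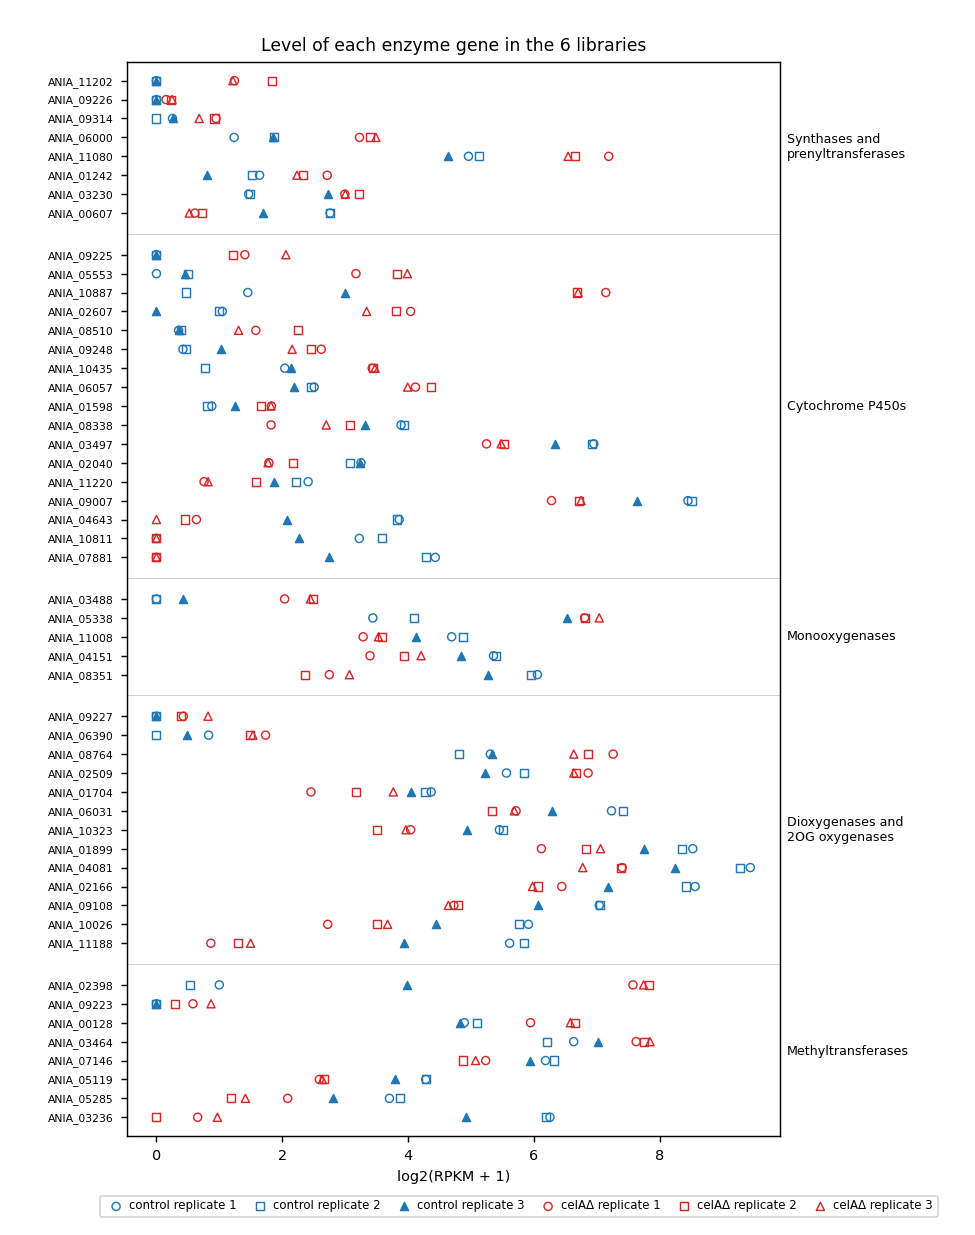
Level of each of the 51 enzyme genes as log2(RPKM + 1) on the horizontal axis, with 1 row per gene grouped by class and 1 point per library (blue control, red celAΔ, control replicate 3 as a filled triangle). Blue and red points do not overlap in any row, and in 24 of the 25 genes that are lower in celAΔ the filled triangle lies between the other controls and the red points.

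The genes higher in celAΔ were mostly of low level. A mean under 10 RPKM in both strains was found in 15 of the 26 higher genes and in 5 of the 25 lower ones. Of all 1375 listed genes 1071 had a mean over 10 RPKM in at least 1 strain, as had 31 of the 51 enzyme genes. The summed mean RPKM of the higher genes was 305 in the control and 1177 in celAΔ, and that of the lower genes was 2257 and 647. The median log2 FC was 2.37 for the higher genes (1.87 with genes that had no control read set at their lower bound) and -1.67 for the lower ones, against 1.89 and -1.71 over all listed higher and lower genes.

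Among the backbone enzymes, the polyketide synthase ANIA_06000, which the assembly lists under the symbol nscA, had 1.35, 2.65 and 2.63 RPKM in the 3 controls and 8.38, 9.54 and 10.2 RPKM in celAΔ. Its mean rose from 2.21 ± 0.741 to 9.38 ± 0.940 RPKM (SD, n = 3), a log2 FC of 2.08 ± 0.35 (SE; edgeR with Benjamini-Hochberg adjustment, adjusted p = 0.00269). The celAΔ libraries lay close together, well above all controls. The other polyketide synthase, ANIA_03230, behaved less evenly. It had 1.76 and 1.80 RPKM in control replicates 1 and 2, but 5.64 RPKM in control replicate 3, against 6.98, 8.29 and 7.02 RPKM in celAΔ. Its log2 FC was 1.27 ± 0.49 (SE; edgeR with Benjamini-Hochberg adjustment, adjusted p = 0.0383). It was 2.06 without control replicate 3, and the gene was no longer called when any other library was left out (edgeR with Benjamini-Hochberg adjustment, adjusted p of 0.0757 to 0.11).

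Nonribosomal peptide synthases went both ways. ANIA_01242, listed as nrps1 and with a coding length of 18234 bp, had 2.12, 1.88 and 0.745 RPKM in the control and 5.57, 4.01 and 3.70 RPKM in celAΔ. The log2 FC was 1.49 ± 0.44 (SE; edgeR with Benjamini-Hochberg adjustment, adjusted p = 0.0151), and control replicate 3 was the library farthest from celAΔ. The call was lost without celAΔ replicate 1 (edgeR with Benjamini-Hochberg adjustment, adjusted p = 0.0504). ANIA_00607, the ferricrocin synthetase sidC, was the only gene of this class that was lower. Ferricrocin is a siderophore, a peptide that binds iron inside fungal cells. ANIA_00607 had 5.78, 5.79 and 2.23 RPKM in the 3 controls and 0.528, 0.646 and 0.436 RPKM in celAΔ. The mean fell from 4.60 ± 2.05 to 0.536 ± 0.105 RPKM (SD, n = 3), which is 8.58-fold lower, with a log2 FC of -3.09 ± 0.45 (SE; edgeR with Benjamini-Hochberg adjustment, adjusted p = 0.0019). Its lowest control library was above every celAΔ library, which holds for every listed gene that was lower.

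The DMATS-type prenyltransferase ANIA_11080 was the most abundant gene of the class. It had 30.2, 34.1 and 24.0 RPKM in the 3 controls and 145, 100 and 92.5 RPKM in celAΔ. The mean rose from 29.4 ± 5.10 to 113 ± 28.5 RPKM (SD, n = 3), a log2 FC of 1.93 ± 0.33 (SE; edgeR with Benjamini-Hochberg adjustment, adjusted p = 0.00284). Here too control replicate 3 was the lowest of all libraries. The terpene synthase family gene ANIA_09314 was near the limit of detection, with 2, 0 and 2 reads in the control against 12, 13 and 7 reads in celAΔ. Its log2 FC was 2.50 with a standard error of 0.61.

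The remaining backbone genes, the prenyltransferase ANIA_11202 and the peptide synthase ANIA_09226, belong to a stretch of chromosome VI in which no listed gene had a control read. In the gene order of the assembly they lie 8 and 13 loci from the start of the chromosome, with the dioxygenase ANIA_09227, the P450 ANIA_09225 and the O-methyltransferase ANIA_09223 within the same 9 loci. Together these 5 genes had 0 reads among 10613544 mapped control reads, and 27, 37 and 39 reads in celAΔ replicates 1, 2 and 3, or 103 among 14020592. Every celAΔ library therefore held reads of these 5 genes and no control library did, although each celAΔ library contributed few. ANIA_11202 had 8, 17 and 7 reads in celAΔ, and ANIA_09226 had 4, 7 and 6.

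Set against a limit of 3 reads per control library, ANIA_09225 was at least 3.47-fold higher in celAΔ, ANIA_11202 at least 2.61-fold and ANIA_09226 at least 1.43-fold. These limits cover counting error only. No fold is given for ANIA_09227, with 2, 2 and 4 reads in celAΔ, or for ANIA_09223, with 2, 1 and 3. All 5 were called (edgeR with Benjamini-Hochberg adjustment, adjusted p of 0.0043 to 0.0217). They are in the selected table only through their celAΔ reads, so these calls are no separate evidence. With adjustment over all loci ANIA_09227 and ANIA_09223 were not called (edgeR with Benjamini-Hochberg adjustment, adjusted p = 0.108 and 0.166). Limma on log2(RPKM + 1) did not call ANIA_09226 (Benjamini-Hochberg adjusted p = 0.336). ANIA_09223 was not called without celAΔ replicate 1, and the counts of ANIA_09227 and ANIA_09223 amount to a handful of reads in the whole experiment. The 4 other loci between the first and the last of these genes are not listed.

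Cytochrome P450s are haem enzymes that draw electrons from a reductase or from cytochrome b5. All 17 listed genes of this family carry only the annotation cytochrome P450, putative, so their substrates cannot be named. The clearest increases began from almost nothing. ANIA_10887 had 1.74, 0.390 and 6.96 RPKM in the 3 controls and 141, 102 and 103 RPKM in celAΔ. The log2 FC was 5.24 ± 0.90 (SE; edgeR with Benjamini-Hochberg adjustment, adjusted p = 0.0029), or 6.70 without control replicate 3. ANIA_05553 had 0, 2 and 2 reads in the control against 55, 101 and 92 reads in celAΔ, and its mean went from 0.262 ± 0.227 to 12.0 ± 3.57 RPKM (SD, n = 3). ANIA_02607 had 6, 5 and 0 control reads and 109, 103 and 58 reads in celAΔ.

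Next to these, ANIA_06057 rose from 4.25 ± 0.597 to 17.0 ± 2.42 RPKM (SD, n = 3) and ANIA_10435 from 2.41 ± 1.49 to 9.95 ± 0.176 RPKM, with log2 FC of 2.00 and 2.02. ANIA_09248 (log2 FC 2.85) and ANIA_01598 (log2 FC 1.26) stayed under 10 RPKM in every library. ANIA_08510 had 1 read in each control library and 9, 19 and 6 reads in celAΔ, a ratio per mapped read of 8.58 with an exact 95% interval from 2.70 to 43.7, for counting error only. The call of ANIA_01598 was lost without control replicate 1.

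Of the 8 P450 genes that were lower, 2 had no read at all in celAΔ. ANIA_07881 had 20.6, 18.5 and 5.70 RPKM in the control, or 119, 95 and 32 reads, and was at least 35.9-fold lower in celAΔ (edgeR with Benjamini-Hochberg adjustment, adjusted p = 0.00219). ANIA_10811 had 8.35, 11.0 and 3.84 RPKM in the control, or 47, 55 and 21 reads, and was at least 18.1-fold lower (edgeR with Benjamini-Hochberg adjustment, adjusted p = 0.00213). ANIA_04643 had 78, 68 and 18 reads in the control against 4, 3 and 0 in celAΔ, a mean 32.4-fold lower. In each of these genes control replicate 3 was the lowest control and, as in every listed lower gene, above all celAΔ libraries.

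The most abundant P450, ANIA_09007, had 349, 363 and 198 RPKM in the control and 76.9, 104 and 107 RPKM in celAΔ. Its mean fell from 304 ± 91.4 to 96.1 ± 16.7 RPKM (SD, n = 3), with a log2 FC of -1.66 ± 0.38 (SE; edgeR with Benjamini-Hochberg adjustment, adjusted p = 0.0068). ANIA_03497 had 123, 121 and 80.1 RPKM in the control and 37.0, 45.0 and 43.7 RPKM in celAΔ, with a log2 FC of -1.37. These are the only P450 genes with a mean above 100 RPKM in the control, and in both all celAΔ libraries stayed below control replicate 3. ANIA_08338, ANIA_02040 and ANIA_11220 were lower by smaller amounts, with log2 FC of -1.25, -1.53 and -1.57. ANIA_08338 was called only when all libraries, or all but control replicate 3 or all but celAΔ replicate 2, were used, and ANIA_11220 was not called without control replicate 1 or celAΔ replicate 3.

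**Figure D2:**
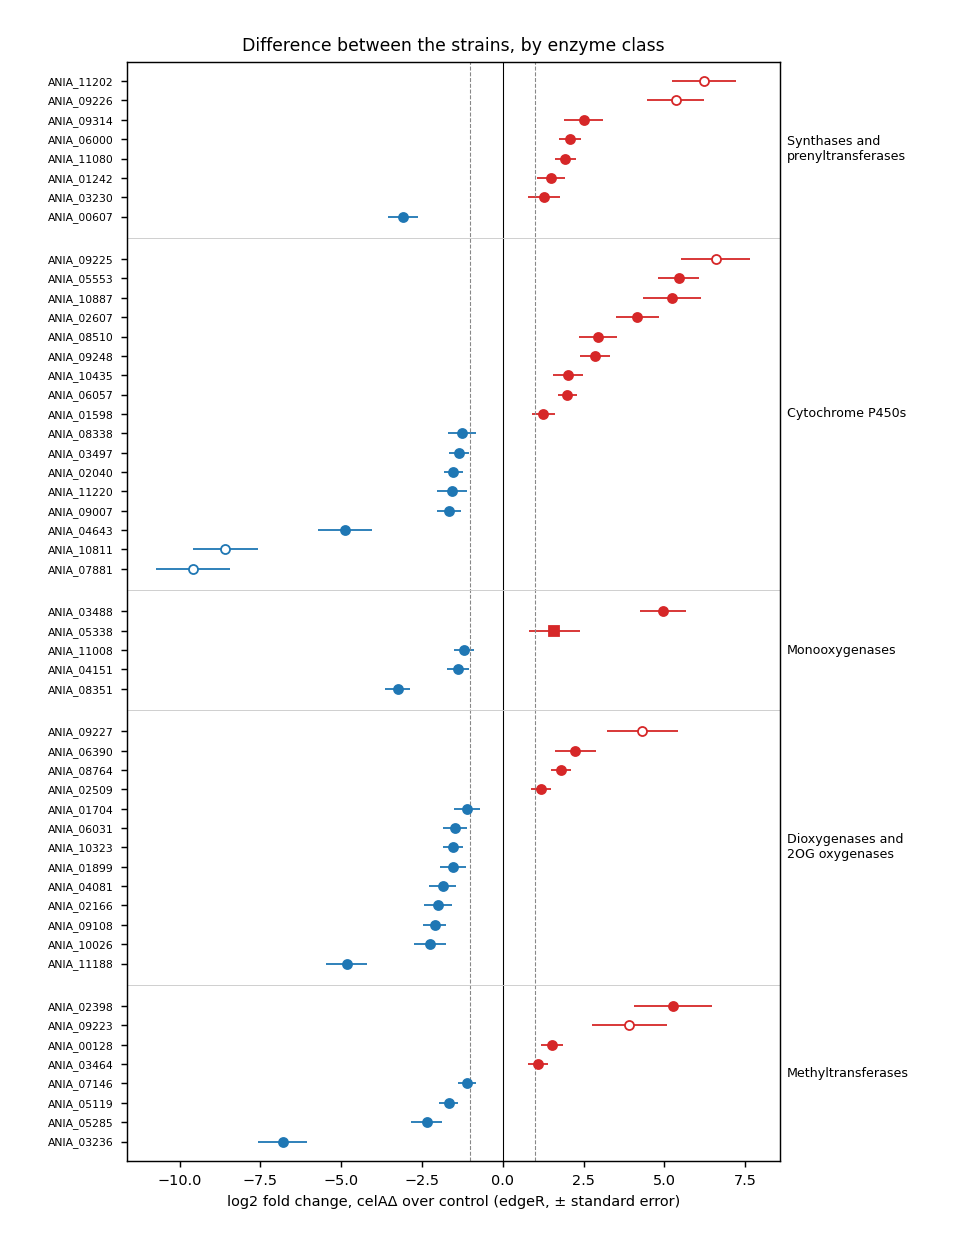
Fitted log2 FC of celAΔ over control from edgeR on the horizontal axis, with its standard error as a bar, for the 51 enzyme genes by class (red higher, blue lower; dashed lines at 1 and -1). Open circles mark the 7 genes with no read in 1 of the strains, whose fitted value depends on the prior count, and the square marks ANIA_05338, the gene that was not called. The synthases and prenyltransferases lie to the right of 0 except ANIA_00607, and most dioxygenases lie to the left.

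The 5 monooxygenases other than P450s ran from nearly silent to abundant. ANIA_03488, annotated as a cyclohexanone monooxygenase, a kind of flavin enzyme that turns cyclic ketones into lactones, had 0, 0 and 2 reads in the control against 24, 40 and 31 in celAΔ. The ratio per mapped read was 36.0, with an exact 95% interval from 9.68 to 301. Both control reads came from control replicate 3. The flavin-binding monooxygenase ANIA_08351 moved in the other direction. It had 65.7, 61.3 and 37.7 RPKM in the control and 5.73, 4.17 and 7.40 RPKM in celAΔ, a mean 9.52-fold lower and a log2 FC of -3.25 ± 0.38 (SE; edgeR with Benjamini-Hochberg adjustment, adjusted p = 0.0013). Its lowest control library was several times above its highest celAΔ library.

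ANIA_05338, also annotated as flavin-binding, was the gene that was not called. It had 9.86 and 16.1 RPKM in control replicates 1 and 2, 91.2 RPKM in control replicate 3 and 111, 112 and 131 RPKM in celAΔ. The log2 FC was 1.59 ± 0.79 (SE; edgeR with Benjamini-Hochberg adjustment, adjusted p = 0.0838). Without control replicate 3 it was 3.18 (edgeR with Benjamini-Hochberg adjustment, adjusted p = 1.01e-05). With all libraries it was called with limma on log2(RPKM + 1), with DESeq2 and with the replicate block (Benjamini-Hochberg adjusted p of 0.0242, 0.0113 and 0.0182), so both the library and the method change the call. ANIA_11008, the squalene monooxygenase erg1, catalyses the first oxygenation on the way to ergosterol, the main sterol of fungal membranes. It had 24.9, 28.4 and 16.4 RPKM in the control and 8.76, 11.0 and 10.6 RPKM in celAΔ, with a log2 FC of -1.20. The steroid monooxygenase ANIA_04151 had 40.1, 41.3 and 27.6 RPKM in the control and 9.53, 14.4 and 17.5 RPKM in celAΔ, with a log2 FC of -1.39.

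Of the 13 dioxygenases and 2OG oxygenases 9 were lower in celAΔ, among them ANIA_04081, the gene with the highest mean level of all 51. It encodes the cysteine dioxygenase Cdo1, which oxidises cysteine to its sulfinic acid. It had 695, 618 and 302 RPKM in the control and 169, 166 and 109 RPKM in celAΔ. The mean fell from 538 ± 209 to 148 ± 33.8 RPKM (SD, n = 3), with a log2 FC of -1.86 ± 0.43 (SE; edgeR with Benjamini-Hochberg adjustment, adjusted p = 0.00699). ANIA_01899, the 4-hydroxyphenylpyruvate dioxygenase that makes homogentisate from the tyrosine breakdown product, had 368, 327 and 215 RPKM in the control and 68.6, 113 and 133 RPKM in celAΔ. Its log2 FC was -1.53. In both genes control replicate 3 was the lowest control library and lay above all celAΔ libraries.

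ANIA_02166, of the phytanoyl-CoA dioxygenase family, had 378, 342 and 145 RPKM in the control and 86.2, 65.8 and 62.2 RPKM in celAΔ, with a log2 FC of -2.01 ± 0.44 (SE; edgeR with Benjamini-Hochberg adjustment, adjusted p = 0.00614). ANIA_09108 belongs to the indoleamine 2,3-dioxygenase family, whose members open the indole ring of tryptophan. It had 131, 131 and 66.4 RPKM in the control and 25.5, 26.7 and 24.0 RPKM in celAΔ, with a log2 FC of -2.11 ± 0.36 (SE; edgeR with Benjamini-Hochberg adjustment, adjusted p = 0.0029). The celAΔ libraries of ANIA_09108 differed by little, while its controls split into a pair and control replicate 3.

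The largest decrease of the class was that of the 2OG oxygenase ANIA_11188, listed under the symbol encD, with 48.1, 56.6 and 14.3 RPKM in the control and 0.821, 1.46 and 1.82 RPKM in celAΔ. Its mean fell from 39.6 ± 22.4 to 1.37 ± 0.508 RPKM (SD, n = 3), 28.9-fold lower, with a log2 FC of -4.83 ± 0.64 (SE; edgeR with Benjamini-Hochberg adjustment, adjusted p = 0.00156). A second 2OG oxygenase, ANIA_10026, had 59.4, 53.2 and 20.9 RPKM in the control and 5.60, 10.3 and 11.8 RPKM in celAΔ, with a log2 FC of -2.26. ANIA_10323, also a 2OG oxygenase, and ANIA_06031, of the 2-nitropropane dioxygenase family, had log2 FC of -1.53 and -1.49. ANIA_01704, annotated only as a dioxygenase, had a log2 FC of -1.10 and lost its call when control replicate 1 or 2 or celAΔ replicate 1 or 2 was left out (edgeR with Benjamini-Hochberg adjustment, adjusted p of 0.0664 to 0.0897).

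Besides ANIA_09227 on chromosome VI, 3 dioxygenases were higher. ANIA_08764, annotated as the LigB subunit of an aromatic ring-opening dioxygenase, had 38.7, 27.1 and 39.3 RPKM in the control against 153, 116 and 98.5 RPKM in celAΔ, with a log2 FC of 1.80. ANIA_02509, of an indoleamine 2,3-dioxygenase subfamily, rose from 46.4 ± 10.0 to 105 ± 9.08 RPKM, a log2 FC of 1.18, and so went the opposite way to ANIA_09108. ANIA_06390, a homogentisate 1,2-dioxygenase, the enzyme that opens the ring of homogentisate, had 4, 0 and 2 reads in the control against 15, 13 and 11 in celAΔ. Its log2 FC was 2.25, or 3.15 without control replicate 1, at levels under 3 RPKM in every library. The levels of ANIA_06390 were thus far below those of ANIA_01899 in both strains.

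Methyltransferases included the enzyme gene with the largest measured fall that left reads in both strains. The O-methyltransferase ANIA_03236 had 75.5, 71.9 and 29.2 RPKM in the control and 0.575, 0 and 0.958 RPKM in celAΔ, from 2, 0 and 3 reads. Its mean was 115-fold lower, with a log2 FC of -6.82 ± 0.77 (SE; edgeR with Benjamini-Hochberg adjustment, adjusted p = 0.0013). The fitted value rests on those few celAΔ reads and ranged from -7.55 without celAΔ replicate 3 to -6.20 without celAΔ replicate 2. ANIA_05285, another O-methyltransferase, had 12.0, 13.6 and 6.03 RPKM in the control and 3.25, 1.28 and 1.67 RPKM in celAΔ, with a log2 FC of -2.35. The tRNA methyltransferase ANIA_05119 had 18.5, 18.5 and 12.9 RPKM in the control and 5.02, 5.31 and 5.23 RPKM in celAΔ, with a log2 FC of -1.67.

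The O-methyltransferase ANIA_02398 was close to absent in control replicates 1 and 2 and abundant in celAΔ. It had 0.999 and 0.449 RPKM in control replicates 1 and 2, 14.8 RPKM in control replicate 3 and 190, 227 and 214 RPKM in celAΔ. The log2 FC was 5.27 ± 1.22 (SE; edgeR with Benjamini-Hochberg adjustment, adjusted p = 0.0072) with all libraries and 8.11 without control replicate 3. ANIA_03464, a protein-L-isoaspartate O-methyltransferase of the kind that repairs aged proteins, had 98.5, 73.2 and 129 RPKM in the control and 197, 215 and 230 RPKM in celAΔ. Its log2 FC of 1.09 was just past the threshold, and the call was lost when control replicate 1 or 2 or celAΔ replicate 3 was left out (edgeR with Benjamini-Hochberg adjustment, adjusted p of 0.0524 to 0.0552). ANIA_00128, of the leucine carboxyl methyltransferase family, had 28.8, 33.3 and 27.5 RPKM in the control and 60.8, 100 and 94.8 RPKM in celAΔ, with a log2 FC of 1.52.

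The sterol 24-C-methyltransferase ANIA_07146, erg6, adds a side-chain methyl group that cholesterol lacks. It fell from 70.4 ± 9.31 to 32.6 ± 4.20 RPKM (SD, n = 3), a log2 FC of -1.11. With erg1 and 3 other genes whose annotation names a sterol step it forms a list of 5, of which 4 were called lower and none higher, where 52.5% of all listed genes were called lower. All 4 calls were lost with adjustment over all loci (edgeR with Benjamini-Hochberg adjustment, adjusted p of 0.07 to 0.0975), although each had an unadjusted p-value under 0.05. They were also lost with DESeq2's own size factors, under which 1 gene of the list, ANIA_01607, was called higher. HMG-CoA synthase (ANIA_04923), an early enzyme of the pathway, and the C-4 methyl sterol oxidase Erg25 (ANIA_06973) had log2 FC of -1.15 and -1.27. ANIA_01607, annotated as a sterol glucosyltransferase, did not pass with edgeR, with a log2 FC of 1.84. It had 7.02 and 7.18 RPKM in control replicates 1 and 2, 73.4 RPKM in control replicate 3 and 101 to 110 RPKM in celAΔ. The median log2 FC of the list was -1.15, against -1.04 over all listed genes.

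Of 5 listed genes whose annotation names tryptophan, kynurenine or indoleamine, 4 were called lower and 1 higher (52.5% and 41.1% of all listed genes). With adjustment over all loci 2 lower genes, ANIA_09108 and ANIA_01857, kept their call, and with DESeq2's own size factors 3 lower genes and 1 higher gene were called. The kynureninases ANIA_01857 and ANIA_05952, which act after the ring-opening dioxygenase, had log2 FC of -2.78 and -1.75, beside -2.11 for ANIA_09108. The tryptophanyl-tRNA synthetase ANIA_10475, an enzyme of protein synthesis rather than breakdown, had a log2 FC of -1.24, and the higher gene was ANIA_02509. For tyrosine and phenylalanine breakdown 3 of 4 genes were called lower and 1 higher. All 4 calls were lost with adjustment over all loci (edgeR with Benjamini-Hochberg adjustment, adjusted p of 0.0551 to 0.3), and DESeq2 with its own size factors called 1 lower and 1 higher. The lower genes were ANIA_01899, the phenylalanine ammonia-lyase ANIA_06075 with a log2 FC of -2.51 and a fumarylacetoacetate hydrolase family gene, ANIA_10612, with a log2 FC of -1.19 at under 3 RPKM, while the homogentisate 1,2-dioxygenase ANIA_06390 was higher.

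Of the siderophore genes, sidC and the siderochrome-iron transporter Sit1 (ANIA_05378) were listed and both were called lower (with adjustment over all loci, or with DESeq2's own size factors, sidC alone), Sit1 with a log2 FC of -1.28 and with 5.73, 7.51 and 6.87 RPKM in the control against 2.03, 2.83 and 3.39 RPKM in celAΔ. Of the genes whose annotation names cytochrome b5, cytochrome b5 itself (ANIA_05828) fell from 548 ± 162 to 260.0 ± 13.6 RPKM (SD, n = 3), with a log2 FC of -1.08. A mitochondrial NADH-cytochrome b5 reductase (ANIA_06386) had 2, 10 and 2 control reads against 58, 34 and 59 in celAΔ. Its log2 FC was 3.01, and whether it serves any P450 was not tested. Of this pair the reductase alone was called with adjustment over all loci and with DESeq2's own size factors. All these lists come from the selected table, in which 93.6% of the genes were called, so a call does not set their genes apart.

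In the gene order of assembly ASM1142v1, all 51 genes were found, and 41 of them had another listed gene within 5 loci. Neighbours named for genes other than the synthases were chosen after their values were seen. ANIA_10887 had 6 listed neighbours. Of these 5 were called higher, among them a PKS-like enzyme, ANIA_07084, at an offset of 2 loci with a log2 FC of 4.52. ANIA_07084 rose from 0.689 to 16.0 RPKM in the mean, with 53 reads over the control libraries and 1609 over celAΔ. The directly adjacent ANIA_07083 and ANIA_10886 had log2 FC of 4.02 and 4.66, next to 5.24 for the P450 itself, while ANIA_07087, at the edge of the window, was lower at -3.01. All 4 listed neighbours of ANIA_10435 were higher, among them ANIA_03661, annotated as a toxin biosynthesis protein, with a log2 FC of 1.83. Beyond the peptide synthase nrps1 lay ANIA_01241, with a log2 FC of 1.98, and an ABC multidrug transporter, ANIA_01240, with 2.11. ANIA_06001, a metallo-beta-lactamase domain gene adjacent to the polyketide synthase ANIA_06000, had a log2 FC of 1.09, and ANIA_09315, adjacent to the terpene synthase gene ANIA_09314, had 1.24. The P450 ANIA_08510 lay 3 loci from a bis-indolylquinone synthetase gene, ANIA_08513, which rose from 95.1 to 278 RPKM in the mean, a log2 FC of 1.55.

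Decreases also lay side by side. ANIA_08351 had 3 listed neighbours, all lower, with log2 FC of -3.02 and -1.88 for ANIA_08352 and the alcohol dehydrogenase ANIA_08356 and no celAΔ read for ANIA_08353. The P450 ANIA_07881 stood beside the fatty acid synthase subunit alpha ANIA_07880, with a log2 FC of -3.48, and sidC beside ANIA_00608, with -3.97. ANIA_10811 lies 31 loci from the start of chromosome I. There the first 25 listed genes, from locus 8 to locus 81, were all called lower, and 18 of them had no read in any celAΔ library, out of 49 such genes in the whole table. The decrease of ANIA_10811 was therefore shared by every listed gene around it.

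Not all neighbours moved together. ANIA_11080 was higher while its 4 listed neighbours were lower, including the galactomannoprotein Mp1 gene ANIA_08484 with a log2 FC of -1.02. ANIA_02040 was lower while its 3 listed neighbours were higher, including a GABA transporter, ANIA_02043, with a log2 FC of 3.05. The decrease of ANIA_03236 stood near increases of ANIA_03240 and ANIA_03241, with log2 FC of 5.67 and 3.63. Counted over pairs within 5 loci, the direction was the same in 54 of 75 pairs that include an enzyme gene (72.0%) and in 803 of 1158 pairs of listed genes (69.3%). For directly adjacent loci these counts were 15 of 20 (75.0%) and 237 of 292 (81.2%). The shares of the enzyme genes are thus near those of the table as a whole.

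**Figure D3:**
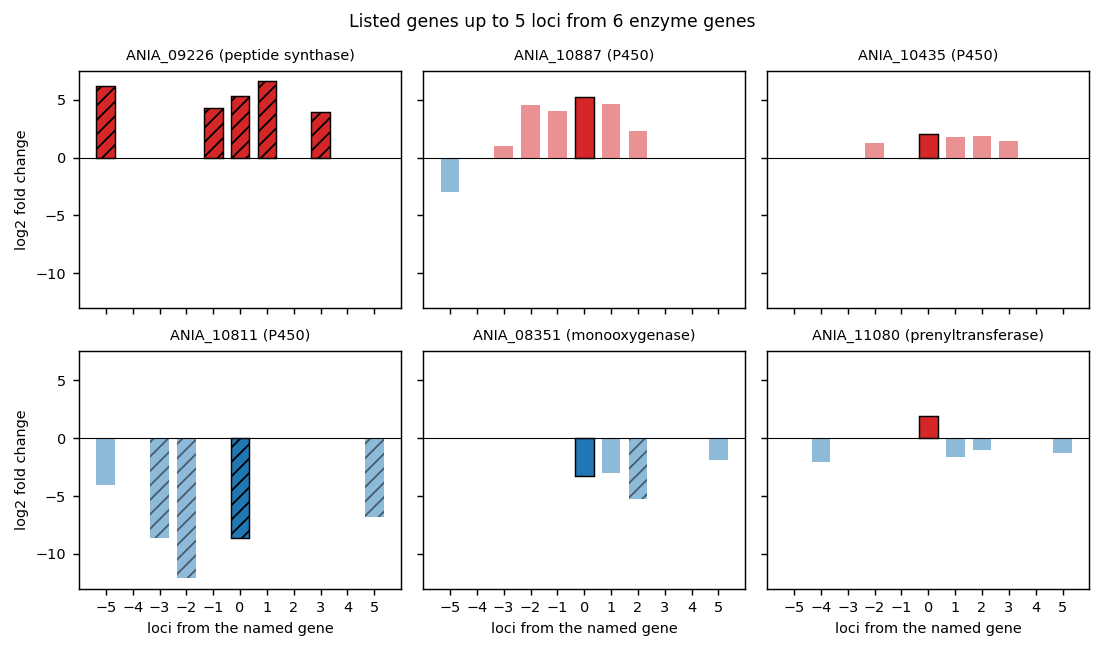
Fitted log2 FC (celAΔ over control) of the listed genes up to 5 loci on either side of 6 enzyme genes, against the number of loci from the named gene. Outlined bars are enzyme genes and pale bars other listed genes, red is higher and blue is lower, and hatched bars had no read in 1 strain, so that their height depends on the prior count. Positions without a bar are not in the table. In 5 panels nearly all bars point the same way, and around ANIA_11080 the neighbours point the opposite way.

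Control replicate 3 was placed differently in higher and in lower genes. Its position was measured on log2(RPKM + 1) between the mean of control replicates 1 and 2, set to 0%, and the mean of celAΔ, set to 100%. In the 25 lower genes the median position was 39.5%, and in 24 of them control replicate 3 lay between the other controls and every celAΔ library (96.0%). In the 26 higher genes the median was 6.09%, and 11 lay between (42.3%). Over all listed genes 74.8% lay between, made up of 74.5% among higher and 75.2% among lower genes and median positions of 46.5% and 31.3%. With only genes that had more than 3 reads in a library of each strain, the higher enzyme genes gave 9 of 17 (52.9%, median position 16.9%) and the higher listed genes 465 of 580 (80.2%, median position 51.3%). Since the genes are not independent replicates and 1 library is concerned, no test was made.

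Among the higher genes, control replicate 3 was closest to celAΔ for ANIA_05338 at 88.4% and ANIA_03230 at 78.7%. It lay on the far side of the other controls for nrps1 at -92.5%, ANIA_02509 at -47.0% and ANIA_02607 at -37.8%. The summed conidiation markers of that library, 1247 RPKM, lay between those of the other controls and those of every celAΔ library (1623 to 3389 RPKM). These markers had been named as higher in celAΔ on the same libraries. Of that sum 943 RPKM came from ANIA_05015. Without control replicate 3 all 51 enzyme genes were called, 26 higher and 25 lower (96.1% of the listed genes in either direction, 45.4% higher and 50.7% lower), and the median log2 FC was 2.91 for the higher and -1.89 for the lower genes.

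**Figure D4:**
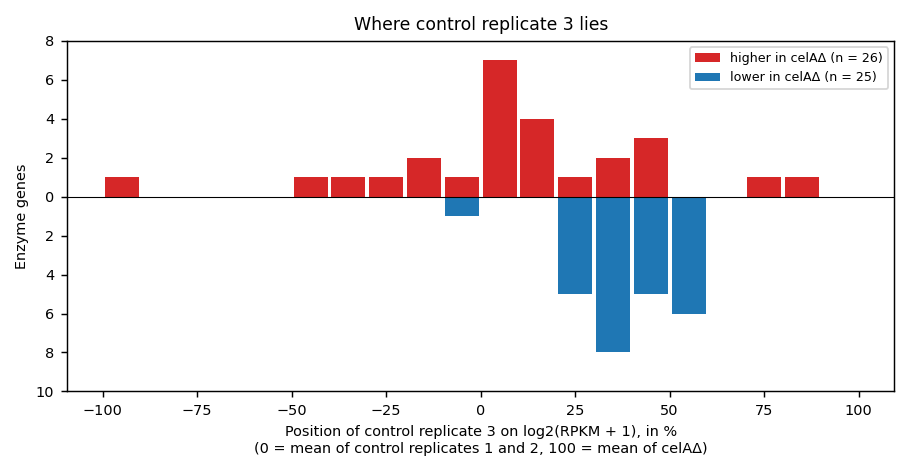
Number of enzyme genes (vertical axis, higher in celAΔ upwards in red, lower in celAΔ downwards in blue) by the position of control replicate 3 on log2(RPKM + 1), where 0% is the mean of control replicates 1 and 2 and 100% the mean of celAΔ. The lower genes gather around their median of 39.5%, with 24 of 25 above 20%, whereas the higher genes spread from below 0% to 88.4% around a median of 6.09%.

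The median coefficient of variation was 61.8% in the control and 21.3% in celAΔ for the higher genes, and 30.1% and 22.9% for the lower genes. Between control replicates 1 and 2 alone it was 17.3% for the higher and 6.54% for the lower genes. Of the 26 higher genes, 5 had no control read and have no value in the control, and 13, these included, had a mean under 10 reads there. With each library left out in turn, 42 of the 51 genes were called every time. In those sets 992 to 1321 of the 1375 listed genes were called. The fold change of 10 enzyme genes moved by over 1.5 times with 1 library left out, and for 6 of these the library was control replicate 3. Over all listed genes the matching counts of stable calls and of moved folds are not given. Among genes not yet mentioned in this respect, the log2 FC of ANIA_09248 was 3.54 without control replicate 3, that of ANIA_03488 was 7.84 without it, that of ANIA_04643 was -5.49 without celAΔ replicate 1 and that of ANIA_11220 was -2.24 without celAΔ replicate 2.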

How the data were processed

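Per the methods, the authors mapped trimmed reads to the FGSC A4 transcriptome with CLC Genomics Workbench. For each gene the authors deposited raw counts of uniquely mapped reads, RPKM (multiple hits included) with the mean of each strain, an unadjusted p-value of their own comparison, which was not used, and gene length, here always a multiple of 3 and so called coding length. All reads of the 51 genes were unique (100%). Strand use in counting is not given in the sources used here, so overlapping and antisense genes cannot be separated.

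Library sizes are the mapped totals derived from reads, length and RPKM, which 98.5% or more of a library's genes fitted to within 1 read. edgeR 4.0.16 in R 4.3.3 was run on all 1375 genes (2 groups of 3 libraries, no block, prior count 0.125, two-sided), which gave a biological coefficient of variation of 46.8%. Folds against a strain without reads are bounds at 3 reads per library. Alternatives were TMM factors, DESeq2 1.42.0 with its own size factors, limma 3.58.1 on log2(RPKM + 1) and log2(RPKM + 0.1), a mean RPKM of at least 1, the replicate number as a block, adjustment over all 10516 loci, and each library left out. DESeq2 with the mapped totals as size factors was added after the data were seen.

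Genes were classed by annotation wording. All synthases, and in each other class the 5 largest absolute log2 FC and the 3 highest mean RPKM, are given by library. Members and lists were chosen with earlier results of these data known. Gene order came from RefSeq assembly ASM1142v1, where 1372 of the listed genes were found. Python 3.11.15 and matplotlib 3.10.9 made tables and plots.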

Additional observations from a re-analysis of the deposited data

How the results depend on the processing

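The counts of enzyme genes called, 25 higher and 25 lower with edgeR, depended most on 2 choices. Adjustment over all loci of the assembly left 14 higher and 14 lower, and over all listed genes 524 calls in place of 1287. DESeq2 with its own size factors called 12 lower and 26 higher. All 13 lost genes then had an absolute log2 FC under 1, the median of the listed genes moved from -1.04 to -0.36, and 63.9% of all calls were higher, against 43.9%. DESeq2 with the mapped totals as size factors, added after the data were seen, called 25 and 25. Other settings gave 20 to 26 higher and 25 lower. A mean RPKM of at least 1 left out 5 of the higher genes. With 1 library left out the counts were 22 to 26 higher and 22 to 25 lower, with 992 to 1321 listed genes called. No log2 FC changed sign, in genes that had been selected with the strains apart.

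The replicate number as a block gave 24 higher and 25 lower: ANIA_09227 and ANIA_09223 lost their call (edgeR, Benjamini-Hochberg adjusted p = 0.0611 and 0.0903) and ANIA_05338 gained one. Same-numbered libraries share only a number: their deviations from the strain means correlated at 0.18, -0.18 and 0.15, and not every library correlated best with its own number.

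Depth limits the genes with few reads. Of the 51 genes, 5 had no read in the control and 2 none in celAΔ. Among all 1375 listed genes these counts were 37 and 49. The 5 are the genes of the chromosome VI stretch.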
